A study of Mus musculus with 38 samples.

Results

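The genes described here encode the proteins of the cytosolic ribosome. They were taken as all array probes whose RefSeq accession maps to one symbol made of Rpl or Rps and a digit, together with Rplp0, Rplp1, Rplp2 and Rpsa. Rps6k kinases (4 probes) and symbols with -ps were left out. This gave 61 genes, 36 of the large and 25 of the small subunit, among 6518 probes with a symbol and 21618 probes in all. The RefSeq table holds 89 protein-coding genes that fit the rule, and the other 28 had no probe under their accession. No measured value was used to choose them.

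The study compared spleen RNA of male mice given 10 rad (10 cGy) of X-rays with spleen RNA of sham-exposed mice, taken 3.5 hr later, on 38 two-colour arrays. The labels name the inbred strains A/J, B6.C and BalbxJ with 8 arrays each, C3H with 6, and BI6Jx and DBA/2J with 4 each, and give an age of 10 to 14 wk (the paper, which writes Balb/C, C3H/HeJ and C57Bl6/J for 3 of them, gives 8 to 10 wk). Each array carried RNA of 1 irradiated and 1 sham mouse. On 19 arrays Cy5 labelled the irradiated RNA and on the other 19 Cy3 did, equally within every strain.

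The authors deposited a signed score per spot and array, and no source used here states its scale, its log base or which dye is the numerator. Each array was centred on its median over all probes, and values of arrays with Cy3-labelled irradiated RNA were multiplied by -1. A positive value thus lies on the side of the irradiated mice if the score is Cy5 over Cy3, and on the side of the sham mice otherwise, so that sides are given and no folds. The strain value of a gene is the mean of its average over arrays of one orientation and its turned average over those of the other. Dye-swap partners cannot be told from the labels, so the strain was the unit of replication. Each pair of mice was hybridised on more than 1 array, so p-values of every fit with arrays as units (within strains, between strains and for dye orientation) treat arrays as separate and are too small. Testing required 19 or more arrays with a value and, in each strain, a value under either labelling, which 51 of the 61 members met (31 large and 20 small subunit genes). The other 10, among them Rpl12, Rpl37, Rpl41, Rpl7, Rps18, Rps2 and Rps7, did not. Members had 91.0% of all possible values, with 38 to 55 members present on the C3H arrays and 52 to 61 on the others.

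3 arrays, 97 in BI6Jx and 50 and 53 in B6.C, correlated below -0.3 over all probes with 8, 4 and 3 arrays of their own dye orientation, so their direction is not settled. Values of BI6Jx and B6.C include them unless said otherwise. Without these 3 arrays the strain value changed sign for 15 of 47 members in BI6Jx and 16 of 51 in B6.C, and with their signs turned for 23 and 35 of 51. All 7 B cell markers were present, each on at least 26 arrays, but a ratio gives no level by which to check a tissue. The 10 tested genes of pancreatic enzymes, which spleen should lack, were all on the negative side over strains (median -0.473), and their median ran from -4.24 to 2.13 over arrays. Their part in the results below was not tested.

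A ribosome joins a large and a small subunit, each an RNA core covered by proteins made from single genes spread over the genome. The messages of these genes mostly begin with an oligopyrimidine stretch (the TOP motif), through which growth signals by way of mTOR turn their translation up or down together. Because every dividing cell needs them in balanced amounts they are often used as an example of co-regulated genes. In spleen they are expressed by lymphoid, myeloid and red cell precursors alike.

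To show what these genes share at their start, the 30 bases around the RefSeq transcription start (15 on either side, build GRCm38.p6) are given for members that the results below turn on. Capitals mark the longest unbroken run of C and T.

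Rpl7a, chr2:26910792-26910821, plus strand: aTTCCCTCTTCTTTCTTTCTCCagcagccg
Rpl14, chr9:120571502-120571531, plus strand: gggcgggCCCTCTCTCTTCTCgctgagcgc
Rplp2, chr7:141447636-141447665, plus strand: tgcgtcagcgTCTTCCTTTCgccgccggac
Rpl22l1, chr3:28805493-28805522, plus strand: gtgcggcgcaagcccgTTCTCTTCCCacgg
Rpl26, chr11:68901551-68901580, plus strand: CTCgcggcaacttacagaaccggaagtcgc
Rpl36al, chr12:69184053-69184082, minus strand: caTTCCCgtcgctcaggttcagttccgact
Rps12, chr10:23787195-23787224, minus strand: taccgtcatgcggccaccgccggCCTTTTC
Rps16, chr7:28350674-28350703, plus strand: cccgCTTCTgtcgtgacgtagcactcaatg

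The first 4 belong to genes on the positive side over strains, and their runs are 21, 14, 10 and 10 bases long. The other 4 belong to genes on the negative side, and their runs are 3, 5, 7 and 5 bases long. These 8 were chosen after their values were seen, so the contrast is an illustration and no test. Other members went the other way. Rps3a1 and Rplp0, also on the positive side, have runs of only 2 and 5 bases. Rpl35, Rpl15, Rpl13a and Rps10, on the negative side, have runs of 18, 17, 13 and 13. No link between run and side is drawn from these 8. Starts were found for 46 of the 61 members (56 starts). A run of at least 8 bases was present at 19 of the 56 starts (33.9%), against 12% of 32841 starts of all genes. The letters CCGGAAG, which hold the core of ETS family motifs, were found on either strand in the 300 bases from 250 before to 50 after the start in 20 of 56 (35.7%), against 8.86% of all starts. TATAAA was found in 10.7% of member starts and 13.6% of all. A match is only a match of letters.

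Over the 6 strains, no ribosomal protein gene passed the test. limma with Benjamini-Hochberg adjustment over 14513 probes called 0 of 51 members and 0% of all probes. At an unadjusted p under 0.05, 3 members were on the negative side (5.88%, where 3.94% of all probes were) and 0 on the positive side (4.27% of all probes). A fit with all 38 arrays as units also called 0 members. The members' means over strains ran from -0.440 to 0.432 with SE of 0.109 to 0.272. Their median was -0.0805, where the median over all probes tested was -0.00675 and the quartiles of all probes lay at -0.140 and 0.176. 21 members had a positive and 30 a negative mean.

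**Figure D1:**
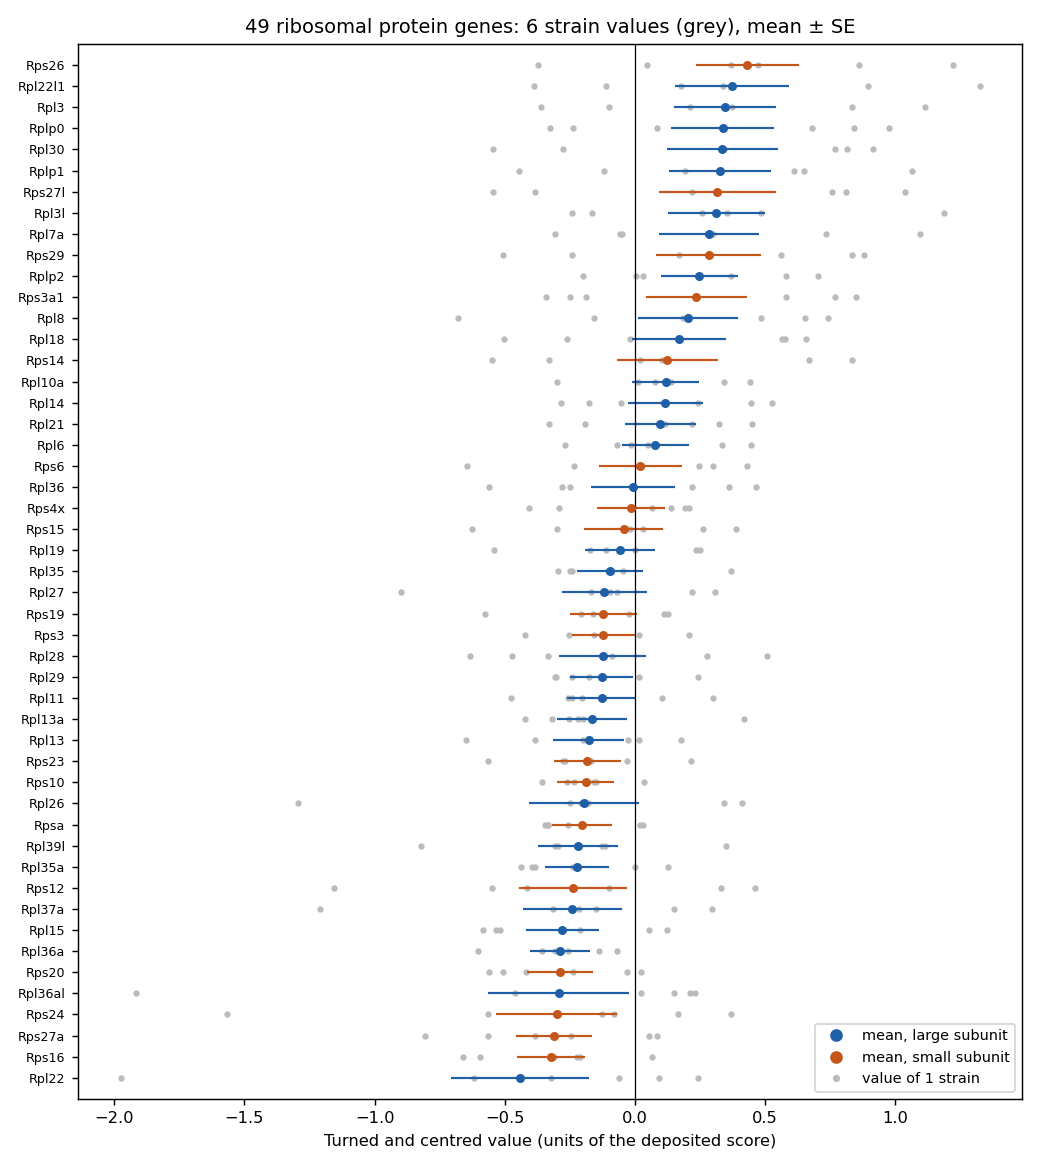
Each row is 1 of 49 of the 51 tested ribosomal protein genes, ordered by its mean. Grey points are the 6 strain values, coloured points the mean over strains and bars its SE (x axis: centred and turned value in units of the deposited score). The means run from -0.440 (Rpl22) to 0.432 (Rps26), and the strain values of nearly every gene lie on both sides of 0.

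The 3 members on the negative side at an unadjusted p, named after their values were seen, were Rps16 and Rps20 of the small subunit and Rpl36a of the large. Rps16, which sits at the decoding side of the small subunit, had strain values of -0.213 in A/J, -0.595 in B6.C, -0.312 in BI6Jx, -0.662 in BalbxJ, 0.0646 in C3H and -0.222 in DBA/2J. Its mean was -0.323 ± 0.130 (SE, n = 6 strains; limma adjusted p = 0.567). Rps20 read -0.0301 in A/J, -0.238 in B6.C, -0.418 in BI6Jx, -0.560 in BalbxJ, 0.0210 in C3H and -0.508 in DBA/2J (limma adjusted p = 0.567). Its BalbxJ value rested on -4.72 on array 2. Without that array it was 0.318 in BalbxJ, and the mean over strains went from -0.289 to -0.142 (limma unadjusted p = 0.330, adjusted p = 0.702). Its BI6Jx value was 0.169 without array 97. Rpl36a read -0.0676 in A/J, -0.257 in B6.C, -0.602 in BI6Jx, -0.357 in BalbxJ, -0.138 in C3H and -0.309 in DBA/2J (limma adjusted p = 0.567). It was the 1 member of 51 (1.96%) with the same sign in all 6 strains, which 4.27% of all probes had. With the signs of the 3 arrays of unsettled direction turned it was at 0.208 in B6.C. Single arrays of Rpl36a were still on both sides, with a lowest, median and highest value of -0.852, 0.134 and 0.596 in A/J and -1.09, -0.381 and 0.186 in BalbxJ.

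The lowest mean belonged to Rpl22, a large subunit protein that binds RNA and that T cells need for their development, and it rested on 1 value. In C3H its values were 0.261, -12.6 and -0.181 on the arrays with irradiated RNA in Cy5 and 0.738, 0.323 and -0.363 on those with it in Cy3. The value of -12.6, on array 27, set the C3H strain value of -1.97. Without that array the mean of Rpl22 over strains went from -0.440 to -0.0887 (limma adjusted p = 0.832). Rps27a, which is made as a fusion with ubiquitin, followed at -0.311 ± 0.146, with -0.564 in B6.C, -0.807 in C3H on 2 of 6 arrays, and 0.0831 in DBA/2J. Rps24 (-0.301 ± 0.233) and Rpl36al (-0.293 ± 0.272) owed their place to BI6Jx, where they read -1.57 and -1.91. Array 97 held the only Cy3 value of both there, and with its sign turned they read 0.543 and 0.408.

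The highest mean was that of Rps26, a small subunit protein at the exit of the messenger RNA, at 0.432 ± 0.199 (SE, n = 6; limma adjusted p = 0.567). It was measured on 23 of the 38 arrays only. Its strain values were -0.374 in A/J, 0.472 in B6.C, 1.22 in BI6Jx, 0.369 in BalbxJ, 0.0455 in C3H and 0.859 in DBA/2J. The BI6Jx value was -0.153 with the sign of array 97 turned, and none could be had without that array. Next came Rpl22l1 (0.372 ± 0.217), Rpl3 (0.345 ± 0.196), which lies near the site of peptide bond formation, Rplp0 (0.336 ± 0.199) and Rpl30 (0.335 ± 0.212). All 4 were negative in A/J and C3H and positive in the 4 other strains, but without array 97 Rpl22l1 and Rpl3 read -0.0817 and -0.319 in BI6Jx.

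The P-stalk, formed by Rplp0 with dimers of Rplp1 and Rplp2, recruits the elongation factors to the large subunit. On the 8 A/J arrays Rplp0 ran from -1.01 through a median of -0.425 to 0.442. It ran from -0.981 through 0.0782 to 1.16 in B6.C, from -1.20 through 0.287 to 3.44 in BalbxJ, and from -1.87 through -0.0540 to 0.917 on the 5 C3H arrays with a value. The groups overlapped throughout. In BI6Jx its values were 2.56 and 1.74 with irradiated RNA in Cy5 and -1.39 and 0.9998 with it in Cy3. In DBA/2J they were 2.85 and 1.03 with it in Cy5 and 0.224 and -0.734 with it in Cy3. In both strains the 2 Cy5 arrays were thus the high ones. Rplp1 and Rplp2 had strain values of -0.445 and -0.200 in A/J, 0.612 and 0.578 in BI6Jx, 0.650 and 0.369 in BalbxJ, and 1.06 and 0.702 in DBA/2J. Without array 97 the BI6Jx values were 0.379 for Rplp0 (0.977 with it), 0.00658 for Rplp1 and -0.487 for Rplp2. None of the 3 passed the test over strains (limma adjusted p = 0.574 for Rplp0, 0.575 for Rplp1 and 0.575 for Rplp2).

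The count at an unadjusted p depended on the strains used, and most on C3H. In the 5 other strains, where 56 members could be tested, limma called 0 members after adjustment, but at an unadjusted p under 0.05 it gave 14 members in place of 3. Of these 9 (16.1% of 56) were on the positive side, where 8.97% of all probes were, and 5 (8.93%) on the negative side, where 4.91% were. Among the positive ones were Rps18 (0.802), Rpl22l1 (0.524), Rpl30 (0.512), Rps27l (0.487), Rplp0 (0.468), Rps29 (0.441), Rpl3l (0.422) and Rpl8 (0.381). The negative ones were Rps16 (-0.401), Rps20 (-0.351), Rpl39l (-0.333), Rpl36a (-0.319) and Rpl13a (-0.282). Rps18 lacks a C3H value with irradiated RNA in Cy3 and so could not be tested over 6 strains. This alternative was chosen after seeing the data. The count was 7 without A/J, 1 without DBA/2J and 0 without B6.C, BalbxJ or BI6Jx. The share of all probes was not computed for these runs, so their counts are not read as a trait of the members.

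Genes related to these proteins but made outside the common ribosome were looked at apart. Rpl22l1, the paralog that can replace Rpl22, read -0.111 in A/J, 0.176 in B6.C, 0.893 in BI6Jx, 1.32 in BalbxJ, -0.386 in C3H and 0.338 in DBA/2J. Its BalbxJ arrays reached 12.2 on array 36, and without that array its mean over strains was 0.140 in place of 0.372. Over arrays, Rpl22 and Rpl22l1 correlated at r = -0.0529 with irradiated RNA in Cy5 and at -0.554 with it in Cy3. Rpl3l, the muscle form of Rpl3, had a mean of 0.312 ± 0.186 and correlated with Rpl3 at r = 0.784 and 0.663. Rpl39l, a form best known from testis, was at -0.219 ± 0.153 and read -0.820 in B6.C, the 1 member with an unadjusted p under 0.05 in that strain (limma adjusted p = 0.474). Rpl36al was the counterpart of Rpl36a at -0.293, and the 2 correlated at r = 0.255 and 0.507. Rps27l, whose human form is a target gene of p53, had a mean of 0.315 ± 0.225 (limma adjusted p = 0.604). It read -0.384 in A/J, 0.218 in B6.C, 1.04 in BI6Jx, 0.756 in BalbxJ, -0.546 in C3H and 0.811 in DBA/2J, with 0.190 in BI6Jx without array 97.

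Within strains, limma called no member after adjustment in any strain. Calls over all probes were 0% in A/J, BalbxJ and DBA/2J, 0.186% in B6.C, 0.0345% in BI6Jx and 0.51% in C3H. At an unadjusted p under 0.05 there were 0 members in A/J (0.42% of all probes), 1 in B6.C (5.77%), 9 in BI6Jx (17.6% of members against 6.39% of all probes), 6 in BalbxJ (11.8% against 8.29%), 1 in C3H (12%) and 2 in DBA/2J (6.2%).

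The median over the 51 members was negative in A/J (-0.236), where 7 of 51 members (13.7%) were on the positive side and 44.4% of all probes were, with a median of -0.0307 over all probes. The quartiles of all probes in A/J were -0.178 and 0.133, so the median over members lay below the lower quartile. The lowest member stood at -0.445. No member reached an unadjusted p under 0.05 in limma, which only 0.42% of all probes did in A/J. In BI6Jx the median was -0.246 with members from -1.91 to 1.22, in C3H it was -0.0815, in DBA/2J 0.0323, in B6.C 0.0942 and in BalbxJ 0.208. Without the 3 arrays of unsettled direction, over 47 members, the median was -0.00328 in B6.C and -0.212 in BI6Jx, and with their signs turned it was -0.0808 and -0.0493. The SD of these medians over strains was 0.183.

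**Figure D2:**
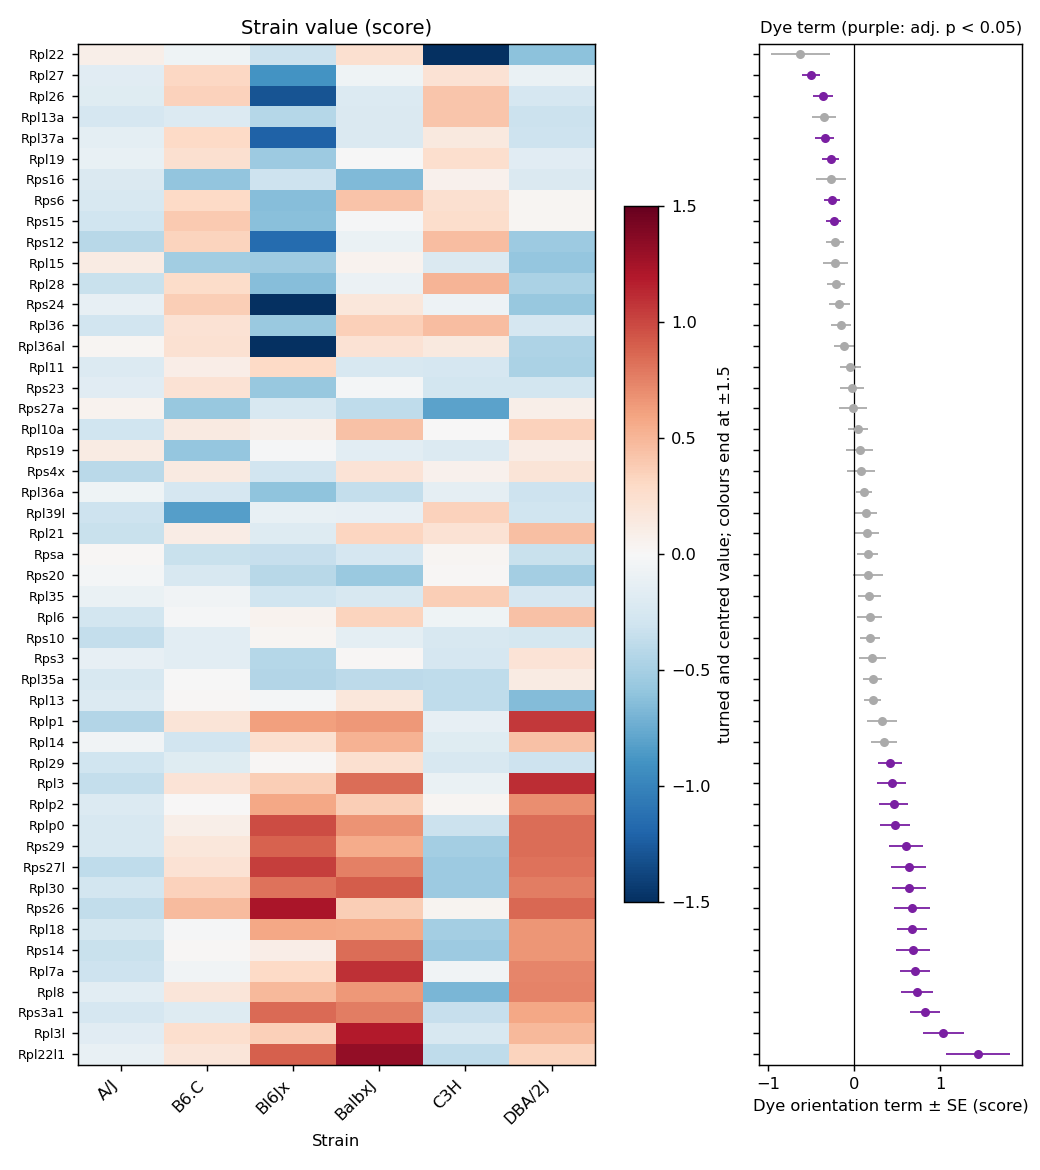
The left panel colours the strain value of each of 49 of the 51 tested members (red positive, blue negative, colours ending at 1.5 on either side), ordered by the dye orientation term in the right panel, which shows that term ± SE with adjusted p under 0.05 in purple. Genes at the bottom (Rpl22l1, Rpl3l, Rps3a1) have a positive dye term and are red in BI6Jx, BalbxJ and DBA/2J. Genes near the top (Rpl27, Rpl26, Rpl37a) have a negative one and are blue in BI6Jx. BI6Jx includes array 97, without which the strain value changes sign for 15 of 47 tested members there (not all of the 47 are plotted).

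The 9 members of BI6Jx at an unadjusted p were all on the negative side. They were Rpl36al (-1.91 in the fit over arrays), Rpl26 (-1.36), Rps24 (-1.33), Rpl37a (-1.21), Rps12 (-1.03), Rpl27 (-0.900), Rps6 (-0.644), Rps15 (-0.625) and Rpl36a (-0.602). Rps6 is the small subunit protein phosphorylated by the S6 kinases, Rps24 acts in early processing of ribosomal RNA, and Rpl26 lies at the exit tunnel of the large subunit. Rpl36al had values on 2 of the 4 arrays only, -1.51 on array 11 (Cy5) and -2.32 on array 97 (Cy3). Rps12 read -1.20 and -0.832 with irradiated RNA in Cy5 and -1.30 on array 97. Rpl37a, with all 4 values, read -1.25 and -1.06 in Cy5 and -0.00420 and -2.53 in Cy3. Array 97 was the lowest of the 4 for Rpl37a and the only Cy3 array with a value for Rpl36al, Rps12 and Rps24. It is 1 of the 3 arrays of unsettled direction. With these left out, 2 of 47 members tested in BI6Jx (4.26%, against 1.02% of all probes) had an unadjusted p under 0.05, and with their signs turned 1 of 51 (1.96% against 3.54%). Without array 97, Rpl36al, Rps12 and Rps24 could not be tested, Rpl26 read -0.664 and Rpl37a -0.579 in BI6Jx, and with the signs turned the mean of Rpl36al over strains was 0.0247.

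The 6 members of BalbxJ were all on the positive side, and 5 of them were Rpl3l (1.18), Rpl7a (1.09), Rpl30 (0.913), Rpl3 (0.835) and Rps14 (0.835), with Rps6 (0.430) as the other one. Rpl7a ran over the 8 arrays from -0.959 through a median of 0.398 to 5.26, the highest being array 36. Its mean was 2.49 on arrays with Cy5-labelled irradiated RNA and -0.304 on the others. Of the Cy5 arrays, 35 and 36 read 3.26 and 5.26, while 3 and 5 read 0.528 and 0.918. Arrays 35 and 36 read 4.19 and 3.91 for Rpl30 and 2.25 and 5.54 for Rps14. They read 2.31 and 3.64 for Rpl3, 3.92 and 6.72 for Rpl3l, but 0.874 and -0.175 for Rps6. The median over members was 0.823 and 0.959 on them, and from -0.420 to 0.151 on the other BalbxJ arrays. In DBA/2J the 2 members were Rpl3 (1.11) and Rpl13 (-0.730 in the fit over arrays), and in C3H it was Rpl22 with its value of array 27.

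Equality of the 6 strain coefficients was tested with an F test in limma, and a difference was called for 0 of 51 members and 0% of all probes. At an unadjusted p under 0.05 there were 8 members (15.7%) against 6.7% of all probes. In order of p these were Rpl36al, Rps12, Rpl26, Rps24, Rpl37a, Rps6, Rps15 and Rpl28. Their limma adjusted p ran from 0.332 to 0.743. BI6Jx had the lowest strain value for each of the 8. Rps12, for example, was at -0.414 in A/J, 0.329 in B6.C, -1.16 in BI6Jx, -0.0994 in BalbxJ, 0.459 in C3H and -0.547 in DBA/2J, and at 0.141 in BI6Jx with the sign of array 97 turned. With the 3 arrays of unsettled direction left out, and with their signs turned, 1 member had an unadjusted p under 0.05 in each case. The share of all probes in this test was not computed for either setting.

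The dye orientation term is the part of a value that keeps its deposited sign when the dyes are swapped, and is thus no response to irradiation. With arrays centred on their medians it passed limma's test (adjusted p under 0.05) on the positive side for 15 of 51 members (29.4%) against 21.4% of all probes, and on the negative side for 6 (11.8%) against 9.01%. As deposited, without centring, 4 members passed in place of 21, and centred on the Gapdh spots 8. The share of all probes was not computed under these settings, so whether the fall is particular to the members was not tested. The largest were those of Rpl22l1 (1.44 ± 0.375 SE, adjusted p = 0.00431), Rpl3l (1.04 ± 0.242, adjusted p = 0.00188) and Rps3a1 (0.821 ± 0.175, adjusted p = 0.00082). Centred but not turned, Rpl22l1 was positive on 8 of 8 BalbxJ arrays, 7 of 8 A/J arrays, 4 of 4 DBA/2J and 4 of 4 C3H arrays with a value, 5 of 8 B6.C arrays and 2 of 3 BI6Jx arrays. The others on the positive side were Rpl8 (0.732), Rpl7a (0.705), Rps14 (0.683), Rpl18 (0.673), Rps26 (0.668), Rpl30 (0.638), Rps27l (0.631), Rps29 (0.601), Rplp0 (0.471), Rplp2 (0.457), Rpl3 (0.433) and Rpl29 (0.410).

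On the negative side stood Rpl27 (-0.503 ± 0.107 SE, adjusted p = 0.000772), Rpl26 (-0.364 ± 0.121, adjusted p = 0.0212), Rpl37a (-0.342 ± 0.110, adjusted p = 0.0179), Rpl19 (-0.277), Rps6 (-0.259) and Rps15 (-0.240). Centred but not turned, Rpl27 was positive on 0 of 8 BalbxJ arrays, 0 of 7 A/J arrays and 0 of 4 DBA/2J arrays with a value. It was positive on 1 of 7 B6.C arrays, 2 of 4 BI6Jx arrays and 5 of 6 C3H arrays, so that C3H lay on the other side. Of the 51 members, 20 had a positive mean over strains and a positive dye term, 17 were negative in both, 13 had a negative mean with a positive term, and 1 (Rps6) the reverse. Mean and dye term come from the same arrays and the orientations are balanced in every strain.

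**Figure D3:**
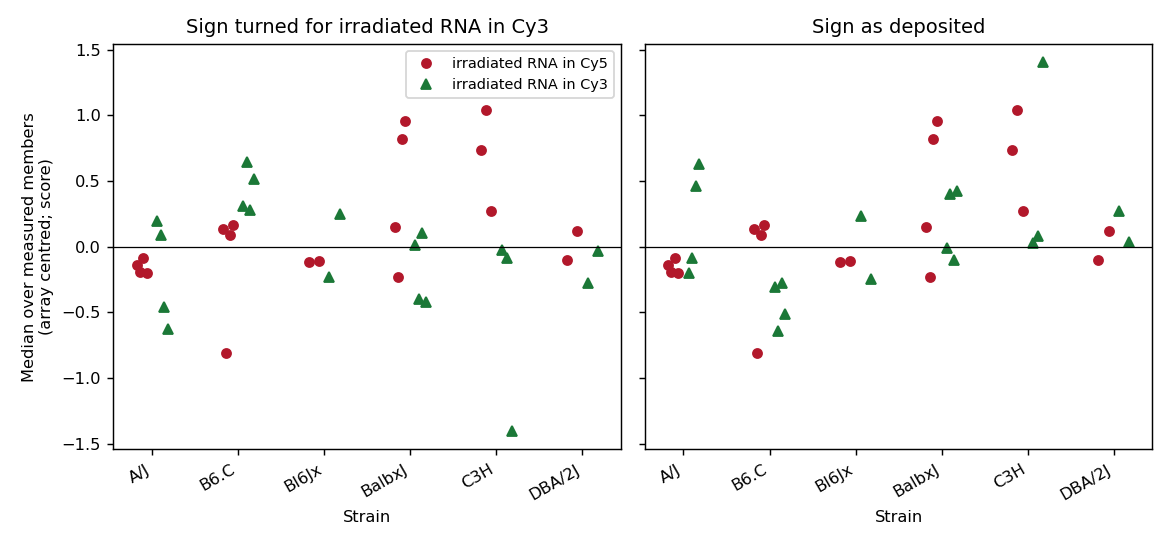
Each point is 1 of the 38 arrays, placed by the median over its measured members after centring, with irradiated RNA in Cy5 as red circles and in Cy3 as green triangles. The left panel has the sign turned for Cy3 and the right panel does not turn it. A point above 0 in the right panel lies above the array's own median over all probes, whatever the sign of the deposited scores. In the right panel all 6 C3H arrays lie above 0, from 0.0248 to 1.40, whereas in the left panel they lie on both sides.

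For the members as a group on single arrays, C3H alone had all its arrays on one side without turning. In C3H the centred median over members, with the deposited sign kept, was positive on 6 of 6 arrays, from 0.0248 to 1.40, so that turning it put the 3 Cy3 arrays (-0.0248, -0.0848 and -1.40) opposite to the 3 Cy5 arrays (0.733, 1.04 and 0.272). In B6.C the turned median was positive on 7 of 8 arrays, from 0.0881 to 0.645, and -0.809 on array 49. In A/J it was positive on 2 of 8 arrays, from -0.626 to 0.198. In BalbxJ 5 of 8 were positive, and in BI6Jx and DBA/2J 1 of 4 each. No strain had all its arrays on one side after turning.

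Large and small subunit genes overlapped in every strain. Over strains the median of the 31 large subunit members was -0.0573, with 14 positive, and that of the 20 small subunit members was -0.101, with 7 positive. The large minus small difference of the strain medians was 0.0359 in A/J, 0.0478 in B6.C, 0.277 in BI6Jx, 0.246 in BalbxJ, -0.0696 in C3H and -0.153 in DBA/2J. Its mean was 0.0640 with an SD of 0.170 over the 6 strains, so the mean was smaller than the spread between strains. On single arrays the difference had both signs in every strain, from -0.553 to 0.545 over all 38.

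**Figure D4:**
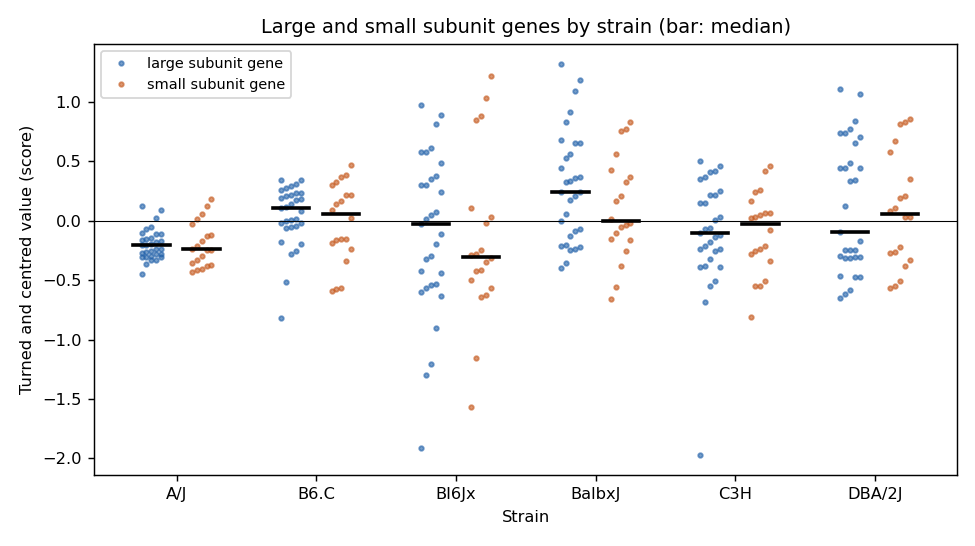
Points are strain values of the 31 large (blue) and 20 small (orange) subunit genes tested, in units of the deposited score, and black bars their medians. The bars lie within 0.277 of each other in every strain, and the points of both subunits overlap in every strain.

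Correlations between members over arrays were set beside those between all probes. On the 19 arrays where Cy5 labelled the irradiated RNA, 23 members had a value on every array, and the median Pearson's r of their 253 pairs was 0.194 (from -0.480 to 0.972), against 0.0176 for pairs of all 4437 such probes. On the 19 where Cy3 did it was 0.235 for 231 pairs of 22 members (from -0.563 to 0.948), against 0.0512. The jackknife SE over arrays was 0.159 and 0.163, so each median lay only slightly more than its SE above that of all probes, and without array 28 of C3H the Cy3 median was 0.0742. Without array 25 of C3H the Cy5 median was 0.106. Each run without an array used the members complete on the remaining arrays, so the SE holds changes of members as well as of arrays. The study's own threshold, an r of about 0.88, was reached by 3.16% and 1.73% of member pairs, and by 0.869% and 0.559% of all pairs. The paper applied it to positive and negative r of expression per animal, in control and irradiated mice apart. Here only positive r was counted, and of scores that set the 2 dyes of an array against each other. These points share arrays, strains and dye effects, and no test was made. With strain means removed, the medians were 0.213 and 0.183, against 0.0342 and 0.0156 over all probes. By subunit, pairs within the large subunit had medians of 0.105 and 0.117, pairs within the small subunit 0.237 and 0.321, and pairs across subunits 0.193 and 0.236. The small subunit medians rest on 36 and 28 pairs. With strain means removed they were 0.140 and 0.369, against 0.145 and 0.175 within the large subunit.

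15 members were complete in both orientations. Of their 105 pairs 61 were above 0 in both and 12 below 0 in both, and 1 reached the threshold in both. This was Rpl7a with Rpl14 (r = 0.903 and 0.946, Spearman's rho 0.786 and 0.898). On arrays 34, 35 and 36, with irradiated RNA in Cy5, Rpl7a read 1.86, 3.26 and 5.26. Rpl14 read 1.18, 1.45 and 3.80 there. How far such arrays carry r was not tested. The next pairs by r were Rps3 with Rps19 (0.855 and 0.844, rho 0.818 and 0.723) and Rps15 with Rps6 (0.880 and 0.784, rho 0.907 and 0.823). Then came Rpl19 with Rps15 (0.871 and 0.685, rho 0.788 and 0.646) and Rpl21 with Rpl35 (0.582 and 0.880, rho 0.614 and 0.818). The lowest by r were Rpsa, the laminin receptor protein of the small subunit, with Rpl7a (-0.0747 and -0.324), Rpl21 with Rpl15 (-0.00713 and -0.385) and Rpsa with Rpl21 (-0.0605 and -0.295).

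With pairs that share at least 15 arrays of each orientation, an alternative added after seeing the data, 1463 member pairs could be set against 64031678 pairs of all probes with at least 19 values. The threshold was reached in both orientations by 33 member pairs (2.26%) and by 0.106% of all pairs. The 33 pairs joined 24 members into 5 separate sets. The first held 13 members: Rpl18, Rpl3, Rpl30, Rpl7, Rpl8, the stalk proteins Rplp0, Rplp1 and Rplp2, and Rps18, Rps27l, Rps29, Rps3a1 and Rps7. Its closest pairs were Rps29 with Rps27l (r = 0.975 and 0.980) and Rplp0 with Rplp1 (0.953 and 0.948), and Rplp0 had the most links, 7. On arrays 11, 34, 35 and 36, with irradiated RNA in Cy5, Rplp0 read 2.56, 2.85, 2.36 and 3.44. Its other Cy5 values ran from -0.981 to 1.74. The second held 4 members, among them Rpl21, Rpl6 and Rps4x, with Rps4x and Rpl21 at 0.920 and 0.963. The third held Rpl14, Rpl7a and Rps14 (Rpl7a with Rps14 at 0.959 and 0.960), the fourth Rpl26 and Rpl37a (0.896 and 0.918), and the fifth Rps19 and Rps27a (0.899 and 0.986).

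**Figure D5:**
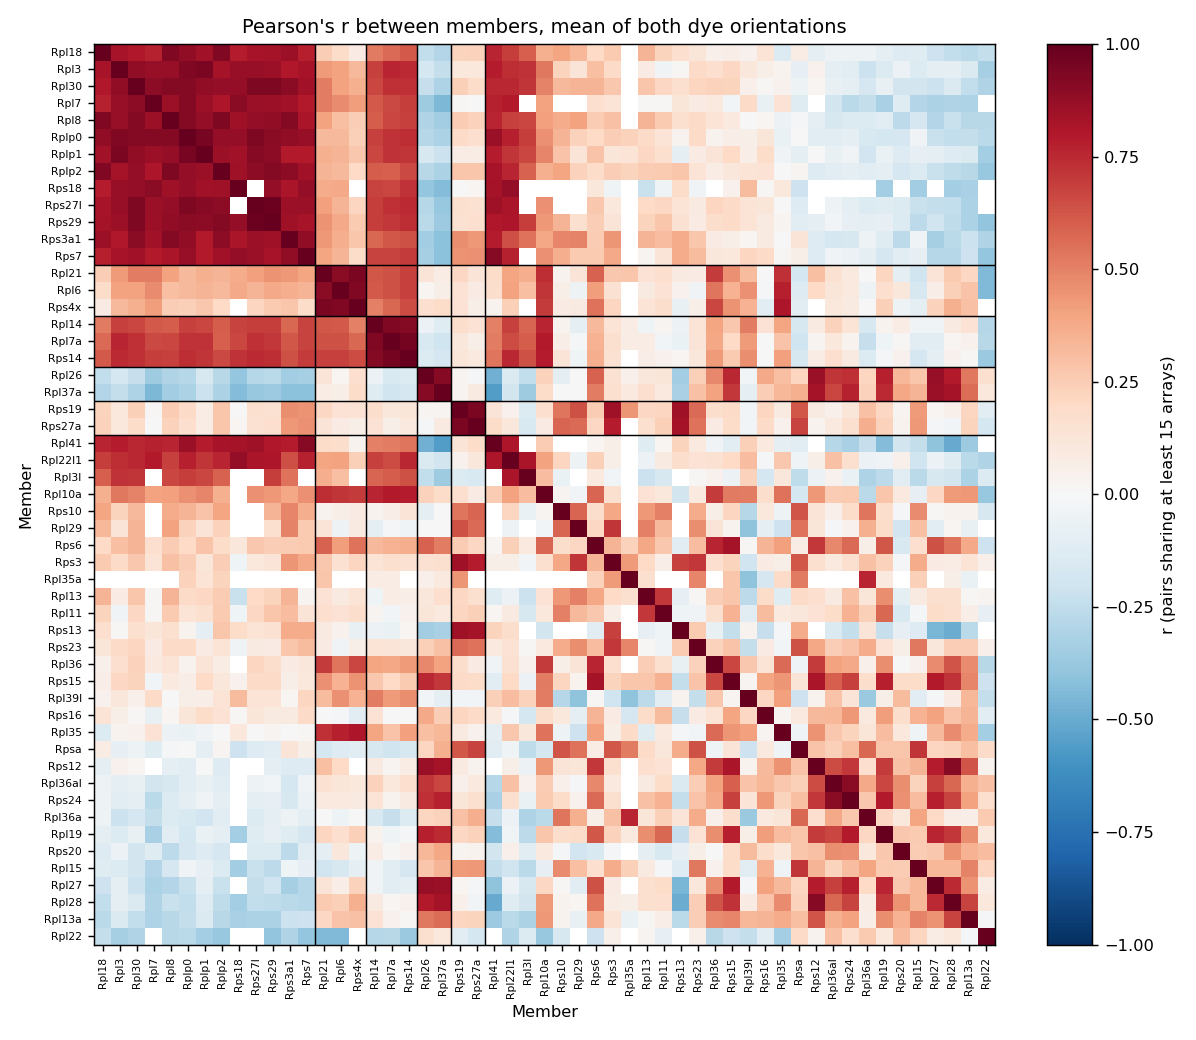
Each square is Pearson's r between 2 of 53 members, averaged over both dye orientations (19 arrays each, pairs sharing at least 15), from blue (-1) to red (1), with white for pairs that share fewer. Black lines mark the plotted members of the 5 sets joined by pairs at or above the study's threshold in both orientations. Members outside the sets follow, ordered by their mean r with the first set.

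Both subunits were present in the first 3 sets. Of the 33 pairs 13 joined large subunit genes (2.58% of 504 such pairs), 4 small subunit genes (1.67% of 239) and 16 crossed the subunits (2.22% of 720). In the first the median over its 10 tested members was -0.254 in A/J, 0.177 in B6.C, 0.713 in BI6Jx, 0.666 in BalbxJ, -0.423 in C3H and 0.789 in DBA/2J, and all 10 had a positive dye term (from 0.320 to 0.821). In the fourth it was -0.165, 0.319, -1.25, -0.211, 0.280 and -0.282 in the same order, with negative dye terms for both. Without the 3 arrays of unsettled direction the BI6Jx median was -0.0172 in the first set and -0.622 in the fourth. In the second it was -0.369, 0.105, -0.236, 0.327, 0.116 and 0.397, with -0.198 in B6.C and -0.572 in BI6Jx without those arrays. The sets and the strain values come from the same arrays, so this is a description. The lowest pair by mean r was Rpl37a with Rpl41 (-0.595 and -0.529), and 0.342% of member pairs against 3.26% of all pairs had a mean r of -0.5 or lower.

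Ribosomal protein genes with other names were looked at beside the members. Rack1, a scaffold on the small subunit, had a mean over strains of -0.0638 ± 0.119. Fau could not be tested, since it lacks a C3H value in one orientation, and read -0.322 in A/J, 0.134 in B6.C, 0.931 in BI6Jx, 0.598 in BalbxJ and 0.660 in DBA/2J.

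Other genes of translation were taken from lists. None of the lists held a gene called over strains by limma. Of 16 tested initiation factors and regulators 4 were positive and 12 negative (median -0.0650), and 1 had an unadjusted p under 0.05, Eif3g, a subunit of the factor that joins the small subunit (-0.417 ± 0.152, limma adjusted p = 0.567). Of 5 elongation genes 1 was positive and 4 negative (median -0.104), with 0 at an unadjusted p under 0.05. Of 15 genes of ribosome biogenesis 7 were positive and 8 negative (median -0.00412), and 1, the nucleolar protein gene Nop58, had an unadjusted p under 0.05 (-0.428 ± 0.152, limma adjusted p = 0.567). Of 9 regulators of TOP messages and ribosome synthesis 2 were positive and 7 negative (median -0.136), among them Mtor (0.160 ± 0.186), Myc (-0.102 ± 0.117) and Tsc2 (-0.264 ± 0.130), with 0 at an unadjusted p under 0.05. These 4 medians all lay between the quartiles of all probes.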

How the data were processed

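Spleen RNA of irradiated and sham mice was hybridised on 38 two-colour long oligonucleotide arrays. The paper describes removal of poor or weak spots, subtraction of local background and Lowess normalization within arrays. The authors deposited one signed score per spot and array (23232 spots), and whether it follows that normalization is not given in the sources used here. The design foresaw log ratios, and the score was used unchanged. No intensities or depths were used, so the number of arrays limits the precision.

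Control spots (1235) were left out, spots of one probe averaged, and symbols taken by RefSeq accession from a table of assembly GRCm38.p6 (6518 probes named, 15100 not). Arrays were centred on their median and turned. Tests were made with limma 3.58.1 in R 4.3.3 (lmFit, eBayes) over all 14513 probes tested, on strain values for the response over strains and on 38 arrays with dye orientation as covariate otherwise, with Benjamini-Hochberg adjustment and a threshold of 0.05. Scripts were tested on simulated data. Promoter sequences are RefSeq's. Figures were drawn with matplotlib 3.10.9.

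The members and lists were chosen with earlier results of these data known. Members named are those called in a test, the 5 highest and 5 lowest means, the 3 smallest p for strain differences, the 3 largest dye terms on each side, the 5 most and 3 least correlated pairs, paralogs, the P-stalk and members with other names. Others were named after their values were seen. Alternatives were other centrings, a scaling, removal or turning of 3 arrays, complete probes, other units and weights, unturned signs, and each array and strain left out. Probe sequences were not used here, so binding to pseudogenes of these genes was not tested. A few members and their values are not reported here.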

Additional observations from a re-analysis of the deposited data

Results flagged for a closer look

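In 50 groups of 4 to 8 values (the members' median and the large minus small difference per array within each strain and per strain, and the strain values of 36 named members), 2 groups held a value farther from the rest than Dixon's 95% limit, 4% of the groups. For groups not chosen by their values the rate would be about 1 in 20. Many of the 36 members, Rpl36al among them, were named for their values in these data, so that rate does not apply to them. The first was the median over members on array 49 of B6.C, -0.809, where the next lowest of the 8 arrays was 0.0881. This array also had the highest deposited median of the B6.C arrays (3.951). The second was the strain value of Rpl36al in BI6Jx, -1.91, where the next lowest strain, DBA/2J, was at -0.461. It rests on 2 of 4 arrays, -1.51 and -2.32, the second being array 97 of unsettled direction.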

How the results depend on the processing

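The count of members called over strains, within strains and for a difference between strains was 0 under every alternative run, and the members' median over strains and the large minus small difference moved by less than their SD over strains under each. The count at an unadjusted p, 3, was 0 as deposited without centring, 1 scaled by the median absolute deviation, 7 centred on Gapdh spots, 1 without the 3 arrays of unsettled direction, 1 with their signs turned, 1 with probes complete on all 38 arrays, 15 with values not turned, 14 in the 5 strains without C3H, 0 to 14 leaving out 1 strain (14 without C3H, 7 without A/J, 1 without DBA/2J, 0 without B6.C, BalbxJ or BI6Jx), and 1 to 4 leaving out 1 array (1 without array 49 of B6.C, 70 of DBA/2J or 96 of BI6Jx). The share of all probes at an unadjusted p was computed only for the main run and the run without C3H. The other counts therefore have no background and are not read as a trait of the members. The dye orientation count, 21, was 4 as deposited, 8 centred on Gapdh and 5 of the 15 members with complete probes, again without a share of all probes. The median r of member pairs was 0.835 (Cy5) and 0.844 (Cy3) as deposited, where array medians differ, 0.507 (Cy5) centred on Gapdh, and 0.106 to 0.305 (Cy5) and 0.0742 to 0.264 (Cy3) leaving out 1 array. The mean of Rpl36al was 0.0247 with the signs of the 3 arrays turned and, leaving out 1 strain, -0.398 to 0.0312 (0.0312 without BI6Jx). The cause was not tested. Of 798 alternative values 773 kept their direction and side of the threshold, stayed within the spread or, for counts, stayed near the main count. Many of these are counts of members called that remained 0, so the total does not speak for the counts at an unadjusted p.
No paired analysis was possible because the labels do not tie arrays of the same mice.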
